A study of Mus musculus with 16 samples.

Results

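The growth hormone and insulin-like growth factor (IGF) axis was followed here through 9 genes in primary mouse hepatocytes: *Ghr*, *Stat5a*, *Stat5b*, *Socs2*, *Cish*, *Igf1*, *Igfals*, *Igfbp2* and *Igfbp4*. The genes were chosen by symbol, and all 9 were found among the 55450 genes quantified and among the 11675 that passed the filter on low values (a mean of at least 1 CPM, counts scaled to library size, over the 16 libraries). Bulk RNA sequencing had been carried out on hepatocytes from livers of wild-type, young adult male C57BL/6J mice. Cells were cultured overnight in DMEM with fetal bovine serum and an insulin-transferrin-selenium supplement, in 4 groups of 4 libraries (replicates A to D). The groups were untreated cells, cells given 10 mM sodium itaconate, cells given a 1:10 dilution of a chemically defined mixture of fatty acids and cholesterol (called lipid), and cells given lipid together with itaconate. The supplement, which contains insulin, was present in all 4 groups, and no growth hormone is named among the additions. The question the design addresses is how itaconate, a metabolite that activated macrophages make, alters the response of hepatocytes to lipid.

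In the liver, growth hormone binds its receptor (*Ghr*) and activates the kinase JAK2, which phosphorylates the transcription factors STAT5A and STAT5B. STAT5 dimers enter the nucleus and switch on *Igf1*, *Igfals* and the feedback inhibitors *Socs2* and *Cish*. Hepatocytes are the main source of circulating IGF-1, which travels in a complex with a binding protein and the acid-labile subunit (*Igfals*), while other binding proteins such as IGFBP2 and IGFBP4 hold IGFs in smaller complexes. In rodents the pulsatile secretion of growth hormone in males also sets the sex-biased expression of many liver genes through STAT5B.

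STAT5 dimers bind the consensus TTCNNNGAA, which reads the same on both strands. Its matches in the 300 bases around RefSeq gene starts (250 before and 50 after the start, GRCm38.p6) are shown because STAT5 switches on some of the 9 genes. Of 32851 such windows in the table, 2726 (8.3%) held at least 1 match. Windows were found for 8 of the 9 genes (all but *Socs2*), 14 windows in all, and 3 of these held a match, 1 at *Cish* and 2 at *Igfals*. The capitals mark the 9 bases of each match.
*Cish*, chr9:107296654-107296683, plus strand: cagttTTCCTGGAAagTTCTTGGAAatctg
*Igfals*, first start, chr17:24877598-24877626, plus strand: gatctataatTTCTCAGAAaagaggctga
*Igfals*, second start, chr17:24878163-24878191, plus strand: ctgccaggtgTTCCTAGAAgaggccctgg
The matches at *Cish* lay at positions 1 and 12 counted from the start base, and 150 of all windows (0.457%) held 2 or more. Those at *Igfals* began 236 and 58 bases before their starts (positions -236 and -58). A match is a string of letters, and no binding was measured.

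The libraries held between 22346049 and 35512004 expected counts. One library stood apart: lipid + itaconate B differed from its group mates A, C and D by 128, 147 and 106 times counting noise (chi-square per gene), while every other pair within a group was at 64.5 or less. Values without it are given beside the results that its omission moved most and beside calls that involve it. Hepatocyte markers were present in every library, with *Alb*, the gene of serum albumin, at a mean of 33454 CPM and *Hnf4a*, a hepatocyte transcription factor, at 226 CPM. The labels do not say whether a replicate letter is a mouse, a preparation or a culture, so p-values measure only the spread between these samples, which may be technical. Throughout, log2 fold changes come from edgeR's quasi-likelihood test with the replicate letter in the model, with their standard errors (SE) and p-values corrected over all 11675 genes tested (Benjamini-Hochberg). A gene is said to have risen or fallen where this adjusted p was under 0.05.

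Levels were compared between genes per kilobase of exon, as CPM per kb averaged over the 16 libraries. The binding proteins led, *Igfbp2* at 122 and *Igfbp4* at 67.6 CPM per kb, and *Igf1* followed at 20.1. The receptor gene *Ghr* (11.6), *Stat5b* (9.94), *Cish* (7.41), *Igfals* (4.97) and *Stat5a* (3.07) came next, and *Socs2* was lowest at 0.887 CPM per kb. Adjacent genes in this order did not overlap in their libraries, with 3 exceptions. *Igfbp2* (86.4 to 162) met *Igfbp4* (55.6 to 86.5) at the edge, the range of *Ghr* (9.26 to 12.9) covered much of that of *Stat5b* (8.89 to 10.6), and *Cish* (5.92 to 8.58) overlapped *Igfals* (4.05 to 6.68). The thinnest counts were those of *Socs2*, with 134 to 373 expected counts per library, and next those of *Igfals*, with 310 to 628. The hormones themselves were at or near 0: *Gh* had at most 5 and *Prl* 0 expected counts in any library. *Igf1r*, the receptor for IGF-1, averaged 0.337 CPM and fell under the filter.

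**Figure D1:**
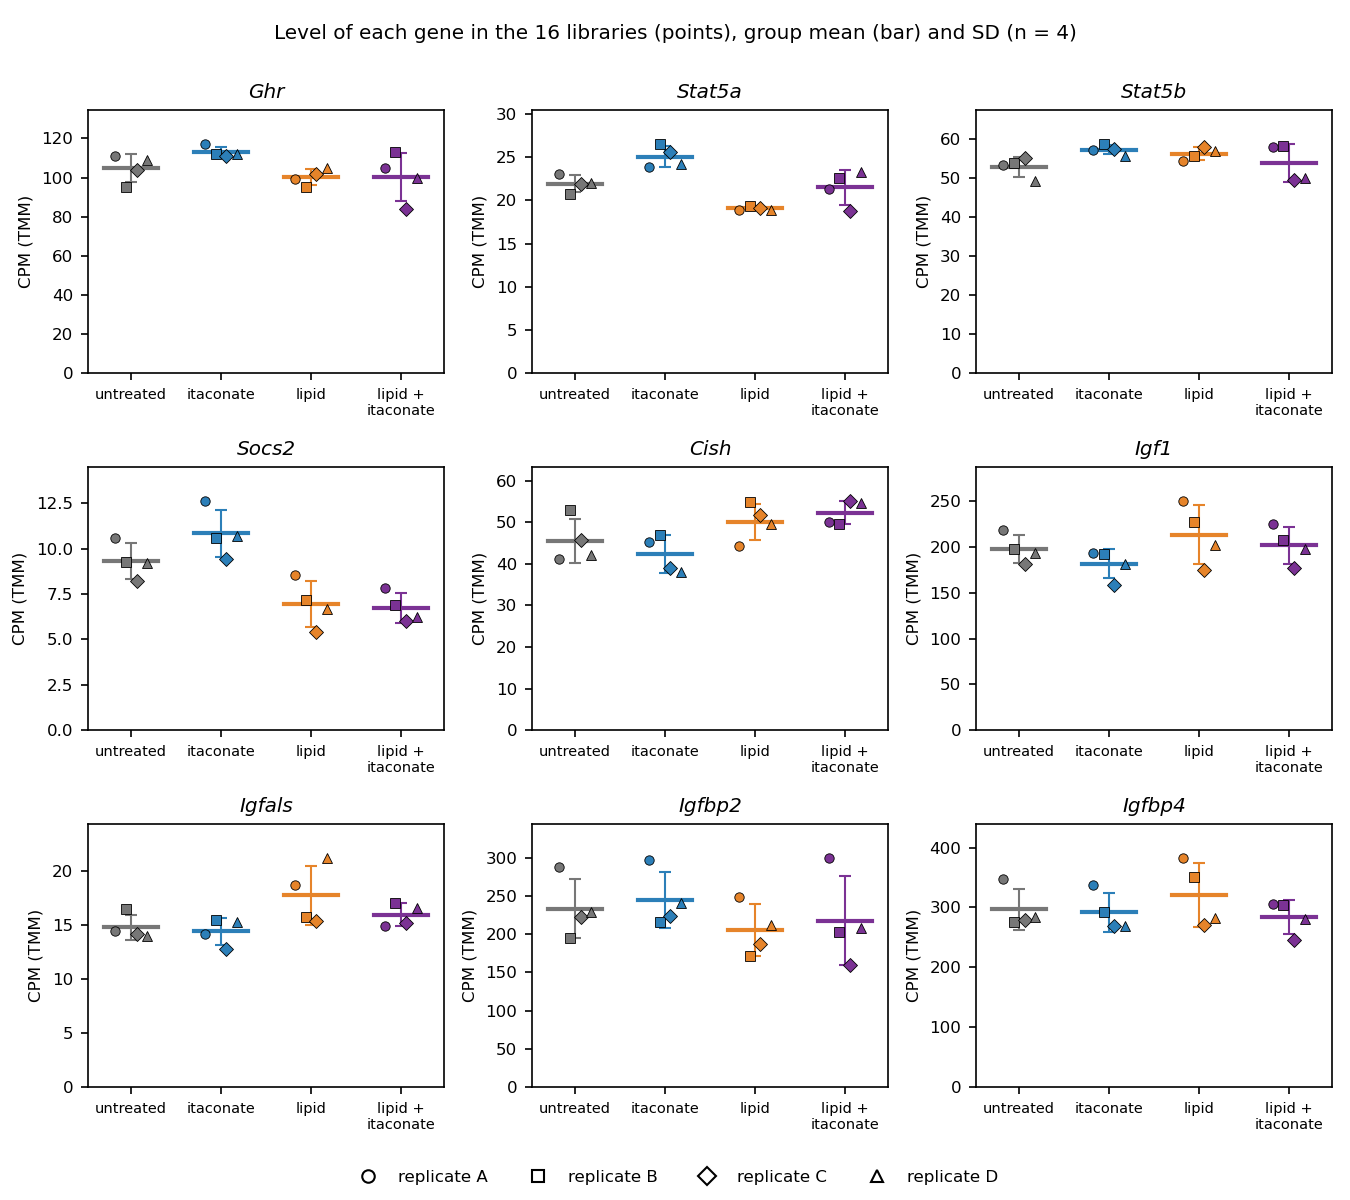
Level of each of the 9 genes in CPM (y axis, starting at 0) in the 16 libraries, by treatment group. Symbols mark replicates A to D, bars the group mean and whiskers the SD (n = 4). *Socs2* sat at 5.42 to 8.52 CPM in lipid and 5.99 to 7.85 CPM in lipid + itaconate libraries, against 9.44 to 12.6 CPM with itaconate alone.

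With lipid alone, 4 of the 9 genes passed the test: *Socs2*, *Stat5a* and *Igfbp2* fell and *Igfals* rose. With lipid on top of itaconate, 6 of the 9 passed: *Socs2*, *Stat5a*, *Igfbp2* and *Ghr* fell and *Cish* and *Igf1* rose. The lipid mixture moved much of the transcriptome, so these counts were close to the background. Of all genes tested, 47.5% were called in lipid against untreated cells (23.8% higher and 23.7% lower), and 47.0% in lipid + itaconate against itaconate (23.5% higher and 23.5% lower). The median size of the log2 change was 0.14 for the 9 genes against 0.19 for all genes in the first comparison, and 0.17 against 0.18 in the second. These comparisons share no library, though they share the estimate of spread. When libraries were scaled by their total counts alone, which moved the median log2 change of all genes from 0.0047 to 0.085, lipid against untreated called 5 higher (*Cish*, *Igf1*, *Igfals*, *Igfbp4*, *Stat5b*) and 1 lower (*Socs2*) in place of 1 higher and 3 lower. The split over all genes was then 3871 higher and 1782 lower. With the same scaling lipid + itaconate against itaconate called 2 higher (*Cish*, *Igf1*) and 1 lower (*Socs2*) in place of 2 and 4, over a median log2 change of all genes of 0.058. Over all genes 3377 were then higher and 1992 lower. Without lipid + itaconate B the counts were again 4 and 6 of 9, where 5681 and 5293 of all genes were called.

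*Socs2* encodes a feedback inhibitor that binds the activated growth hormone receptor and marks it for degradation, and it lies on chromosome 10 (95385362 to 95417180, minus strand, GRCm38; ENSMUSG00000020027.18). Untreated replicates A to D had 10.6, 9.25, 8.20 and 9.19 CPM, and lipid-treated replicates had 8.52, 7.17, 5.42 and 6.64 CPM. Each lipid library was below the untreated library of its letter, although lipid A was above untreated C. The log2 fold change was −0.43 (SE 0.079, adjusted p = 0.000346), and *Socs2* fell by 25.9%. With itaconate the values were 12.6, 10.6, 9.44 and 10.7 CPM, and with lipid + itaconate 7.85, 6.88, 5.99 and 6.25 CPM. These groups did not overlap, and the change was −0.69 (SE 0.077, adjusted p = 5.54e-06), or −0.70 without lipid + itaconate B. *Socs2* showed the strongest change of the 9 genes, and 6.4% of all genes changed as much or more in that comparison. It was called in 24 of 24 alternative analyses in both comparisons. In bulk RNA, fewer cells of a type and less RNA per cell cannot be told apart.

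*Cish*, the other feedback inhibitor of the pair and a SOCS family member that blocks STAT5 docking, rose where *Socs2* fell in lipid + itaconate against itaconate (chromosome 9, 107296026 to 107302784, plus strand; ENSMUSG00000032578.7). Untreated replicates had 41.2, 53.0, 45.7 and 42.1 CPM and lipid replicates 44.4, 54.9, 51.7 and 49.6 CPM. Each letter was higher with lipid, but the groups overlapped, and the log2 change of 0.14 did not pass (adjusted p = 0.134; 95% interval −0.018 to 0.30). Itaconate replicates had 45.3, 47.1, 39.0 and 38.0 CPM and lipid + itaconate replicates 50.2, 49.7, 55.1 and 54.6 CPM. Here the groups separated, and *Cish* rose by 24.1% (log2 fold change 0.31, SE 0.075, adjusted p = 0.00331), or by 0.39 on the log2 scale without lipid + itaconate B (adjusted p = 0.000398). The call was kept in 24 of 24 alternatives, over which the adjusted p ran from 3.96e-06 to 0.0196. The antisense genes that overlap *Cish* averaged at most 0.0764 CPM. The window around its start holds the paired matches printed above; no window was found for *Socs2*.

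These inhibitors were also read within each library as the ratio of *Socs2* to *Cish* expected counts, a measure chosen after the values were seen. The ratio was 0.174 to 0.258 in untreated and 0.225 to 0.282 in itaconate libraries, and 0.105 to 0.191 in lipid and 0.109 to 0.156 in lipid + itaconate libraries. With lipid it was lower in 4 of 4 letters in both comparisons, by 0.58 ± 0.19 (SD over letters) on the log2 scale without itaconate (−0.58, exact two-sided permutation p = 0.0857) and by 1.0 ± 0.28 with it (−1.0, p = 0.0286 by the exact permutation test). The latter is the smallest p that 4 against 4 libraries allow, and after adjustment over 8 such tests it was 0.0762. These permutations of libraries take no account of the letters, so differences between letters count as spread. Across the 16 libraries, with the mean of each letter removed, log2 CPM of *Socs2* and *Cish* had a Pearson r of −0.81 (Spearman −0.80), a description in which the points share treatments and a common scaling.

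**Figure D2:**
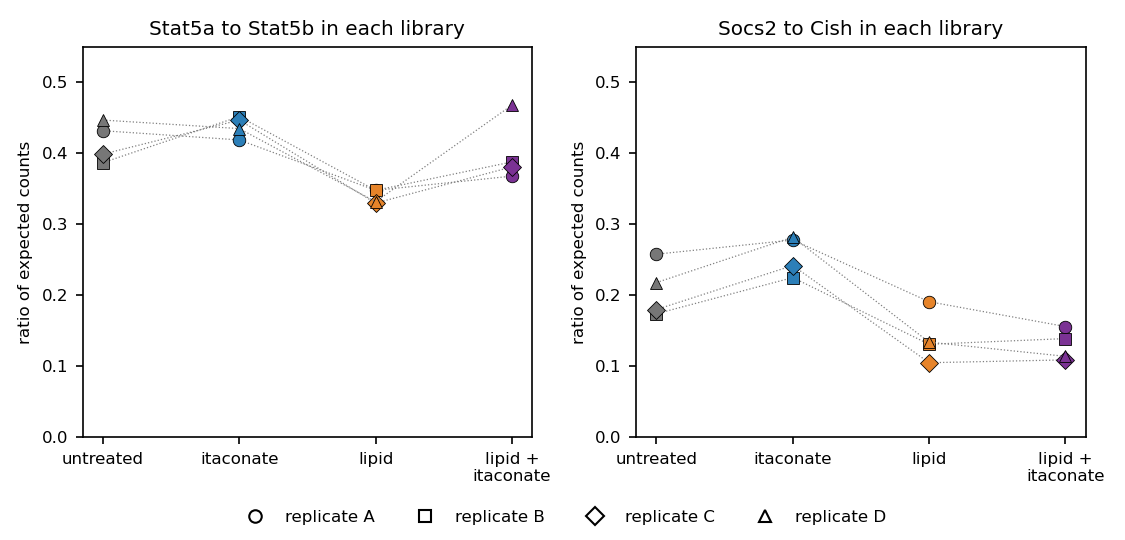
Ratio of expected counts within each library (y axis, from 0) for *Stat5a* to *Stat5b* (left) and *Socs2* to *Cish* (right), by treatment group; symbols mark replicates A to D, and dotted lines join libraries of 1 letter. The lipid libraries have a *Stat5a* to *Stat5b* ratio of 0.33 to 0.348, below all others.

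Of the STAT5 paralogues, *Stat5a* fell in both lipid comparisons and *Stat5b* passed in neither. *Stat5a* (chromosome 11, 100859351 to 100885169, plus strand; ENSMUSG00000004043.14) had 23.1, 20.8, 21.9 and 22 CPM in untreated replicates and 18.9, 19.4, 19.1 and 18.9 CPM in lipid replicates. The groups did not overlap, and *Stat5a* fell by 13.1% (log2 fold change −0.20, SE 0.069, adjusted p = 0.0239). Itaconate replicates had 23.9, 26.5, 25.6 and 24.2 CPM, and lipid + itaconate replicates 21.3, 22.6, 18.8 and 23.3 CPM, again without overlap (−0.22, SE 0.067, adjusted p = 0.0136, or −0.24 without lipid + itaconate B). The lipid fall was called in 17 of 24 alternatives, with adjusted p from 0.0103 to 0.155 (the highest by total counts alone), and the fall on top of itaconate in 21 of 24. The former call of *Stat5a* was lost with any of lipid A, B or D or untreated A or C left out (adjusted p = 0.0501 to 0.0895), and the latter without itaconate C (0.0565) or lipid + itaconate C (0.0596).

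*Stat5b*, the form that carries most of the growth hormone signal in male liver, lies beside *Stat5a* on the other strand (chromosome 11, 100780731 to 100850724; ENSMUSG00000020919.11) and did not pass in any of the comparisons. Its values were 53.4, 53.7, 55.1 and 49.2 CPM untreated, 54.2, 55.7, 57.9 and 57.0 CPM with lipid, 57.2, 58.6, 57.3 and 55.7 CPM with itaconate, and 58.0, 58.2, 49.4 and 49.9 CPM with both. Lipid + itaconate C and D were low and A and B high, so that this group spanned nearly the whole range. The lipid changes were 0.091 (95% interval −0.023 to 0.20, adjusted p = 0.175) without itaconate and −0.088 (−0.20 to 0.025, adjusted p = 0.189) with it, or −0.12 without lipid + itaconate B (adjusted p = 0.0925).

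The *Stat5a* to *Stat5b* ratio within a library, also chosen after the values were seen, was 0.387 to 0.447 in untreated, 0.419 to 0.452 in itaconate, 0.33 to 0.348 in lipid and 0.368 to 0.468 in lipid + itaconate libraries. It was lower with lipid than without in 4 of 4 letters (log2 difference −0.29, exact permutation p = 0.0286, adjusted 0.0762). It was higher with lipid + itaconate than with lipid in 4 of 4 letters (0.24, p = 0.0286, adjusted 0.0762, exact permutation test). The paralogues are similar in sequence, and reads that fit both are shared out by the quantification, so these levels are uncertain to that extent. The last 72 bases of *Stat5a* also overlap *Stat3* on the other strand, which averaged 245 CPM and itself fell with lipid (log2 fold change −0.63). The part of either in the *Stat5a* result was not tested.

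*Ghr*, the receptor (chromosome 15, 3317760 to 3583492, minus strand, ENSMUSG00000055737.12), ran from 83.8 to 117 CPM. Untreated replicates had 111, 95.3, 104 and 109 CPM and lipid replicates 99.3, 95.2, 102 and 105 CPM, with a log2 change of −0.062 (95% interval −0.21 to 0.082, adjusted p = 0.474). This difference turned to 0.018 with scaling by total counts alone. Itaconate replicates had 117, 112, 111 and 112 CPM and lipid + itaconate replicates 105, 113, 83.8 and 99.7 CPM. The groups overlapped through lipid + itaconate B, and the fall of 0.17 on the log2 scale (−0.17, SE 0.068, adjusted p = 0.0473) was called in 12 of 24 alternatives. It was −0.26 (adjusted p = 0.0021) without lipid + itaconate B and −0.093 (adjusted p = 0.192) for *Ghr* without lipid + itaconate C. The other libraries whose omission lost the call of *Ghr* were itaconate A, B, C or D, lipid + itaconate A or D, untreated C or D and lipid D (adjusted p = 0.0519 to 0.119). Without the replicate block the adjusted p was 0.0796.

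*Igf1*, the main endocrine product of the axis (chromosome 10, 87858265 to 87937042, plus strand; ENSMUSG00000020053.18), ran from 159 to 250 CPM. Untreated replicates had 219, 198, 182 and 194 CPM, and lipid replicates 250, 227, 175 and 202 CPM. Letters A, B and D were higher with lipid and C was lower, and the log2 change of 0.10 did not pass (SE 0.044, adjusted p = 0.0794). Itaconate replicates had 194, 192, 159 and 182 CPM and lipid + itaconate replicates 225, 208, 177 and 198 CPM. The groups overlapped, but every letter was higher with lipid, and *Igf1* rose by 11.0% (log2 fold change 0.15, SE 0.044, adjusted p = 0.0107). This was called in 22 of 24 alternatives, over which the adjusted p ran from 0.00351 to 0.254. The change was again 0.15 without lipid + itaconate B (adjusted p = 0.0184). The call was lost without the replicate block (adjusted p = 0.254) and, for *Igf1*, without itaconate A (0.0597).

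*Igfals*, which encodes the subunit that keeps IGF-1 in its long-lived complex (chromosome 17, 24865997 to 24882010, plus strand; ENSMUSG00000046070.9), rose with lipid. Untreated replicates had 14.5, 16.5, 14.2 and 14.0 CPM and lipid replicates 18.7, 15.8, 15.4 and 21.2 CPM. Lipid A and D were above all untreated libraries, while lipid B was below untreated B. The log2 fold change was 0.26 (SE 0.089, adjusted p = 0.0257), a rise of 19.7%. The call did not hold without the replicate block (adjusted p = 0.0531). It was also lost for *Igfals* without lipid A (0.0833) or D (0.129) or untreated A (0.0554) or D (0.124). Over the alternatives the adjusted p ran from 0.0038 to 0.129. With itaconate the values were 14.2, 15.5, 12.8 and 15.3 CPM, and with both 14.9, 17.1, 15.2 and 16.6 CPM, a difference of 0.14 (95% interval −0.045 to 0.33, adjusted p = 0.198).

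*Igfbp2*, a binding protein that growth hormone lowers in liver (chromosome 1, 72824503 to 72852474, plus strand; ENSMUSG00000039323.18), had 287, 195, 222 and 229 CPM untreated and 249, 171, 187 and 212 CPM with lipid. Replicate A was highest and B lowest in both groups, and each lipid library was below the untreated library of its letter. *Igfbp2* fell by 12.2% (log2 fold change −0.19, SE 0.072, adjusted p = 0.0427). Itaconate replicates had 297, 216, 224 and 240 CPM and lipid + itaconate replicates 299, 203, 160 and 208 CPM. Letter A was level, C was much lower, and the change was again −0.19 (SE 0.072, adjusted p = 0.0439), or −0.24 without lipid + itaconate B (adjusted p = 0.0161). Without the block the adjusted p was 0.408 and 0.463, and the calls were made in 14 and 15 of 24 alternatives (adjusted p from 0.00279 to 0.408 and from 0.00341 to 0.463). The call of *Igfbp2* with lipid alone was lost with any of untreated A, C or D, lipid A or B, itaconate B or D or lipid + itaconate D left out (adjusted p = 0.0516 to 0.173). That on top of itaconate was lost without itaconate B, C or D, lipid + itaconate C or D or untreated D (0.0548 to 0.168).

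*Igfbp4*, which in general restrains IGF action (chromosome 11, 99041244 to 99054392, plus strand; ENSMUSG00000017493.12), did not pass in any comparison. Untreated replicates had 348, 276, 279 and 284 CPM, lipid replicates 382, 350, 271 and 282 CPM, itaconate replicates 337, 292, 269 and 269 CPM and lipid + itaconate replicates 305, 304, 246 and 281 CPM. Letter A was the highest in every group. The lipid changes were 0.11 (95% interval −0.02 to 0.23, adjusted p = 0.155) and −0.037 (−0.16 to 0.088, adjusted p = 0.633), and the latter was −0.067 without lipid + itaconate B and turned to 0.016 when libraries were scaled by total counts alone.

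**Figure D3:**
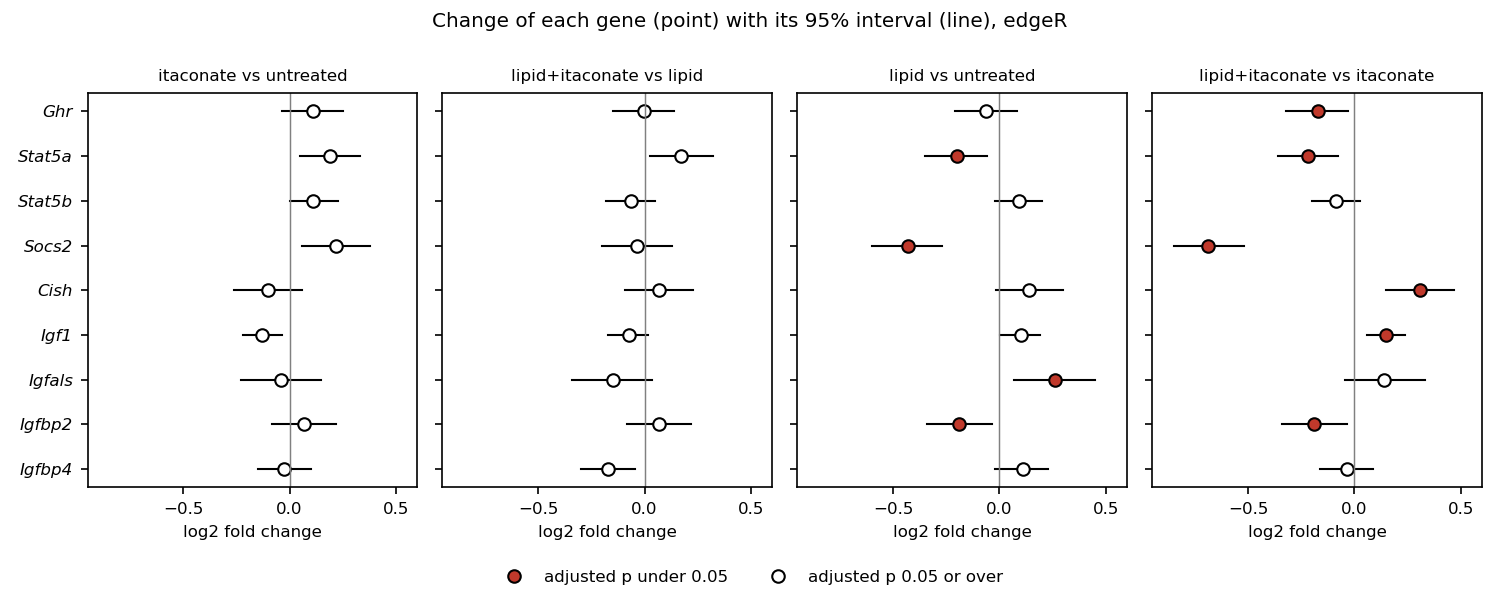
Log2 fold change of each gene (x axis) in the 4 comparisons, with its 95% interval as a line; filled points had an adjusted p under 0.05 (edgeR). No gene is filled in either itaconate comparison, 4 are in lipid against untreated and 6 in lipid + itaconate against itaconate.

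Itaconate itself left all 9 genes under the threshold. Against untreated cells 0 of 9 passed in edgeR, DESeq2 and limma. Of all genes tested, edgeR called 4.91% (573, against 791 by DESeq2 and 590 by limma). At an unadjusted p under 0.05 there were 4 of 9 in edgeR. The share of all genes at that unadjusted level was not counted here, so this count and those like it below have no background. *Socs2* was higher in 4 of 4 letters (log2 difference 0.22, SE 0.076, 95% interval 0.057 to 0.38, adjusted p = 0.109), as was *Stat5a* (0.19, SE 0.068, 0.048 to 0.33, adjusted p = 0.114), whose groups did not overlap. *Stat5b* was also higher in 4 of 4 letters without overlap (0.11, SE 0.053, adjusted p = 0.231). *Igf1* was lower in 4 of 4 letters (−0.13, SE 0.044, −0.22 to −0.035, adjusted p = 0.105). The differences of the other 5 genes lay between −0.10 (*Cish*) and 0.11 (*Ghr*). The untreated libraries serve both this comparison and lipid against untreated, so their values enter both.

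With lipid present, itaconate again gave 0 of 9 calls in edgeR, DESeq2 and limma, edgeR called 2.58% of all genes tested (301, against 512 by DESeq2 and 282 by limma), and 2 of 9 had an unadjusted p under 0.05. *Igfbp4* was lower in 4 of 4 letters (−0.17, SE 0.059, 95% interval −0.30 to −0.044, adjusted p = 0.143). *Stat5a* was higher in 3 of 4 (0.17, SE 0.069, 0.027 to 0.32, adjusted p = 0.201). *Socs2* differed by −0.036 (95% interval −0.20 to 0.13, adjusted p = 0.863) and *Ghr* by −0.0029 (−0.15 to 0.14, adjusted p = 0.991), the latter −0.09 without lipid + itaconate B (adjusted p = 0.496). Without that library *Igfbp2* differed by 0.016 in place of 0.069, *Cish* by 0.14 in place of 0.067 and *Stat5b* by −0.10 in place of −0.064, none of them called. Whether itaconate acted differently with and without lipid was tested as an interaction, for which 0 of 9 passed in edgeR, DESeq2 and limma. Of all genes, edgeR called 0.00857% (1 gene), limma 1 and DESeq2 36. At an unadjusted p under 0.05 there were 2, *Stat5b* (−0.18, SE 0.075, adjusted p = 0.532) and *Socs2* (−0.25, SE 0.11, adjusted p = 0.545), each with the same sign in 4 of 4 letters. Without lipid + itaconate B these were −0.22 and −0.27, that of *Ghr* was −0.20 in place of −0.11, that of *Stat5a* −0.045 in place of −0.018 and that of *Igfbp2* −0.057 in place of 0.0011, and no gene of the 9 was called.

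The wider pathway was read from a list of 51 other genes of growth hormone, JAK-STAT and IGF signalling, of which 38 passed the filter. With lipid 6 rose and 13 fell, and with lipid on top of itaconate 10 rose and 13 fell, so that 19 and 23 of 38 were called (19 and 22 without lipid + itaconate B), where 47.5% and 47.0% of all genes were. Over all genes, 5681 and 5293 were called without lipid + itaconate B. Scaling by total counts alone gave 11 higher and 9 lower with lipid (3871 and 1782 over all genes). On top of itaconate it gave 11 and 11 (3377 and 1992 over all genes). Without the block 14 and 15 genes of the list were called, where 4149 and 3990 of all genes were. *Jak2*, the kinase coupled to the growth hormone receptor, averaged 48.8 ± 3.58 CPM (SD, n = 4) untreated and 39.4 ± 3.49 CPM with lipid and fell by 0.31 on the log2 scale (−0.31, adjusted p = 4.54e-05). *Prlr*, the related prolactin receptor, had −0.17 (adjusted p = 0.0428), a call made in 10 of 24 alternatives (adjusted p from 0.0272 to 0.243). These genes and *Socs1*, below, were named after their values were seen.

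Among the other STAT genes *Stat2*, *Stat3* and *Stat6* fell in lipid against untreated cells, the last by −0.17 on the log2 scale (adjusted p = 0.00384; named after its values were seen). *Stat2*, a transcription factor of type I interferon signalling, went from 153 ± 23.2 to 100 ± 10.8 CPM (log2 fold change −0.60), and *Stat3*, the main mediator of interleukin-6 in hepatocytes, from 289 ± 12.3 to 187 ± 7.54 CPM (−0.63, SE 0.039). *Socs3*, the inhibitor that STAT3 induces, fell from 32.1 ± 2.48 to 18.8 ± 1.57 CPM (−0.77, SE 0.066). *Socs1*, a further inhibitor, was low at 2.68 ± 0.708 CPM and fell to 0.941 ± 0.184 CPM (−1.47, SE 0.22). For *Stat2*, *Stat3*, *Socs3* and *Socs1* the untreated and lipid libraries did not overlap, and the adjusted p was at most 7.69e-05.

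The 4 largest rises with lipid among genes of the pathway list with at least 5 CPM were those of *Grb10*, *Lyn*, *Foxo1* and *Insr*. *Grb10*, an adaptor that dampens insulin and IGF-1 receptor signals, went from 8.40 ± 0.904 to 20.7 ± 2.14 CPM (1.31, SE 0.10, adjusted p = 7.04e-08). *Insr*, the insulin receptor, went from 116 ± 2.39 to 145 ± 12.8 CPM (0.32, adjusted p = 1.92e-05), *Foxo1*, a transcription factor that insulin keeps out of the nucleus, from 28.6 ± 1.22 to 36.9 ± 4.87 CPM (0.36, adjusted p = 0.00135), and *Lyn*, a Src family kinase, from 34.2 ± 1.65 to 44.5 ± 3.03 CPM (0.38, adjusted p = 1.12e-05). None of the 4 overlapped between these groups.

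Itaconate called 0 of the 38 without lipid in edgeR and limma, with 15 at an unadjusted p under 0.05 and 1 called by DESeq2, and 3 with lipid (5 by DESeq2). With lipid, itaconate raised *Socs3* to 25.1 ± 2.71 CPM (0.41, SE 0.066, adjusted p = 0.00501) and lowered *Grb10* to 14.4 ± 1.17 CPM (−0.53, SE 0.093, adjusted p = 0.00967). *Bcl6*, a repressor that competes with STAT5 at sex-biased liver genes, went from 78.9 ± 8.61 to 93.0 ± 3.77 CPM (0.24, SE 0.046, adjusted p = 0.0142). Without lipid + itaconate B these adjusted p were 0.0196 for *Socs3*, 0.0225 for *Grb10* and 0.0429 for *Bcl6*, and without the block 0.124, 0.0479 and 0.308. Over all alternatives they reached at most 0.197, 0.138 and 0.308. In the interaction 0 of 38 passed in edgeR, DESeq2 and limma, and 5 had an unadjusted p under 0.05.

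A list of 25 sex-biased genes that growth hormone controls in liver was also read. All 12 female-biased members averaged under 1 CPM, and the 13 that passed the filter were all male-biased. With lipid 5 of the 13 fell and 0 rose (8 called by DESeq2, 5 by limma), where 23.7% of all genes were lower, and the median log2 change was −0.17 against 0.0047 for all genes. With lipid on top of itaconate 6 fell and 0 rose, where 23.5% of all genes were lower, again with a median of −0.17 (0.0041 for all genes). The fall was not particular to this list, since 10 general hepatocyte markers, described below, had medians of −0.21 and −0.19 in these comparisons. Leaving out lipid + itaconate B gave 7 and 10 of the 13 target genes lower, where 5681 and 5293 of all genes were called in either direction. Leaving out the block gave 1 and 3 lower, where 4149 and 3990 of all genes were called in either direction. *Selenbp2*, the furthest of the called genes, went from 40.6 ± 9.06 to 29.8 ± 4.47 CPM (−0.43, adjusted p = 0.00489) and *Slco1a1*, an organic anion transporter named after its values were seen, from 94.5 ± 8.96 to 75.6 ± 5.89 CPM (−0.31, adjusted p = 0.00606). *Cyp4a12a*, a fatty acid hydroxylase likewise named later, had −0.26 (adjusted p = 0.00175). Members of the *Mup* and *Cyp4a12* families are near-identical copies that share reads, so their values are uncertain. Itaconate called 0 of 13 in both settings in edgeR, with 2 at an unadjusted p under 0.05 in each. DESeq2 called 1 without lipid and 0 with it, and limma 0 and 0. Without lipid + itaconate B, edgeR called 1 of 13 for itaconate against untreated, where 721 of all genes were called. This was *Hsd3b5*, named after its values were seen (log2 difference 0.36, adjusted p = 0.0364, against 0.0934 with all libraries). It was called in 5 of 24 alternatives.

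**Figure D4:**
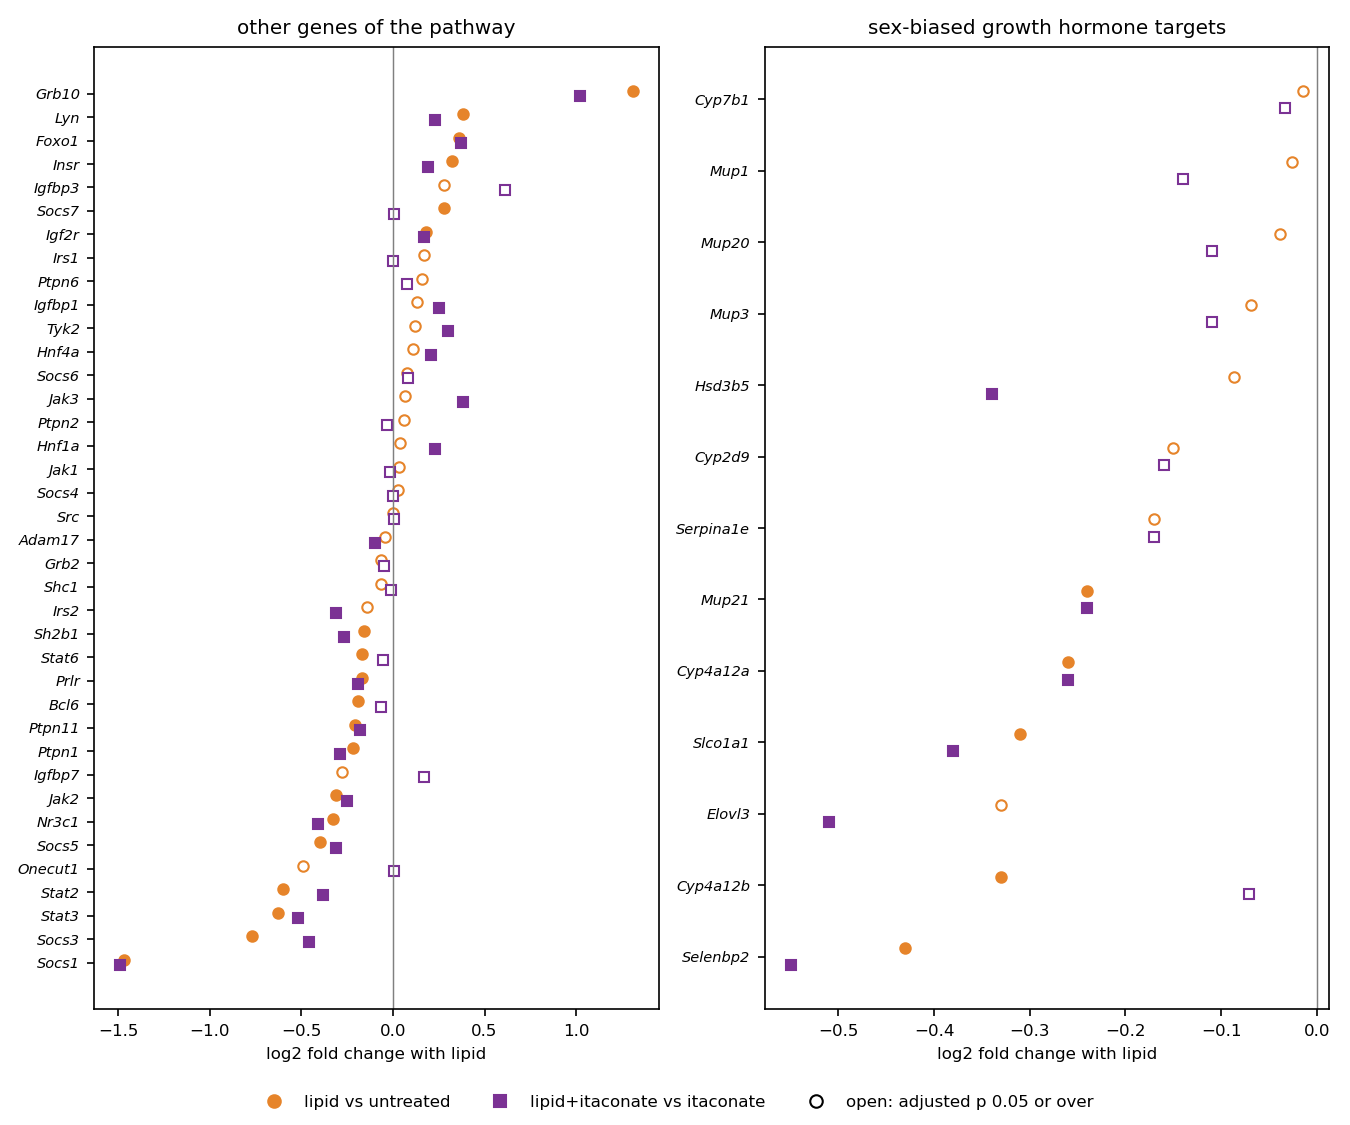
Log2 fold change with lipid (x axis) for the 38 other pathway genes (left) and the 13 growth hormone target genes (right); circles are lipid against untreated and squares lipid + itaconate against itaconate, filled where the adjusted p was under 0.05. On the left, *Grb10* stands at 1.31 and *Socs1* at −1.47; on the right, all 13 target genes lie below 0 in both comparisons.

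Some markers of cell types moved with lipid as well, where 23.7% of all genes tested were lower and 23.8% higher. With lipid on top of itaconate 23.5% of all genes were lower and 23.5% higher. The summed CPM of 10 hepatocyte markers ran from 43630 to 59914 in untreated and 37330 to 50222 in lipid libraries, with 4 of 10 lower and 0 higher, and from 43357 to 60121 with itaconate and 33910 to 55407 with both (5 lower and 1 higher). The median log2 changes of these markers were −0.21 with lipid and −0.19 with lipid on top of itaconate. Without lipid + itaconate B the calls among them numbered 7 and 10 in place of 4 and 6, where 5681 and 5293 of all genes were called. The 11 macrophage markers summed to 186 to 298 CPM untreated, 236 to 334 with lipid, 164 to 253 with itaconate and 218 to 323 with both. Of the 9 that passed the filter, 5 fell and 1 rose with lipid (median log2 change −0.44), and 8 fell and 1 rose with lipid on top of itaconate (median −0.87). *Cd68*, which averaged 218 CPM over the 16 libraries, made up most of that sum. The Kupffer cell markers *Clec4f* and *Adgre1* averaged 2.19 and 1.78 CPM, and *Cd5l* and *Marco* of the same list 11 and 8.64 CPM. The rest of that list lay between 0.18 CPM (*Timd4*) and 6.03 CPM (*Lyz2*). The 8 cholangiocyte markers summed to 599 to 1169 CPM untreated and 335 to 608 CPM with lipid, nearly all of it *Spp1* and *Sox9*, while the defining *Krt19* and *Krt7* were at 0.224 and 0.00459 CPM. Endothelial markers summed to at most 31.9 CPM and stellate markers to at most 30 CPM in any library. Most of the stellate sum was *Reln* (mean 20.2 CPM) and *Ecm1* (5.23 CPM), with *Lrat* and *Des* near 0. The part of these shifts in the changes of the 9 genes was not tested.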

How the data were processed

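The RNA of 16 hepatocyte cultures was sequenced from stranded mRNA libraries. The authors trimmed reads with Cutadapt 1.18, aligned them to mm10 with STAR 2.7.0f and deposited gene-level expected counts from RSEM 1.3.1, without normalization; the strand setting of the counting is not given in the sources used here. Of the deposited expected counts, 5.41% were not whole, and all were rounded. Totals per library set the precision and bound counting error only.

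The filter kept 11675 genes (mean of 1 CPM or more). In R 4.3.3, edgeR 4.0.16 (TMM, quasi-likelihood test) was fitted to all 16 libraries with terms for treatment and replicate letter, with Benjamini-Hochberg correction and a threshold of 0.05. SE is the log2 fold change divided by the root of F. The letters come from the labels. All 24 same-letter correlations of deviations from group means were over 0.1 (0.144 to 0.469; other letters −0.436 to 0.178), so the letter was kept. Log2 CPM used a prior count of 0.5. Within-library ratios were compared with exact two-sided permutation tests.

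Named were the 9 genes. Of the other lists, those called with itaconate (at most 6) and the 4 largest rises and falls with lipid among called genes (averaging 5 CPM or more) were named, plus those said to be chosen later. For likeness, the gene with the highest r was named. The members and lists were chosen with earlier results of these data known, while the tests follow one fixed design. 1 gene of the pathway list is not reported here and is in none of that list's counts. Positions and exon lengths are from GENCODE M21 (GRCm38). Alternatives were DESeq2 1.42.0, limma 3.58.1 (limma-trend), other scalings and filters, no replicate block, only the 8 libraries of a comparison, and each library left out.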

Additional observations from a re-analysis of the deposited data

Results flagged for a closer look

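Of the 36 sets of 4 libraries checked (9 genes in 4 groups), 1 held a library far from its group mates: *Igfbp4* in untreated replicate A was at 348 CPM, against 276 to 284 CPM in the other untreated libraries. Chance alone flags about 5% of such sets. Replicate A was also the highest for *Igfbp4* in the other groups.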

How the results depend on the processing

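Counts were thinnest for *Socs2* (134 to 373 expected counts per library), and the effect of depth was not tested. The numbers of the 9 genes called with lipid, alone and on top of itaconate, rested on the replicate block and on single libraries. Those called with itaconate, with and without lipid, stayed at 0 with no replicate block. For itaconate against untreated the number went from 0 to 2 (*Igf1*, *Stat5a*) when the 8 libraries of the comparison were fitted alone. Calls over all genes then went from 573 to 1865. For lipid + itaconate against lipid the number of the 9 went from 0 to 1 with no filter (*Igfbp4*). It was 0 to 1 with a library left out (1, *Stat5a*, without lipid + itaconate C). Calls over all genes went from 301 to 725 with no filter, where more genes were tested, and to 889 without lipid + itaconate C. For lipid against untreated the number of the 9 went from 4 to 2 with no replicate block. It was 1 to 5 with a library left out (1 without untreated A or lipid A, 2 without lipid B, untreated D or lipid D). Calls over all genes went from 5546 to 4149 with no replicate block, and were 4717 to 6003 with a library left out. For lipid + itaconate against itaconate the number of the 9 went from 6 to 3 with no replicate block and to 3 with total counts alone. It was 3 to 6 with a library left out (3 without itaconate C or lipid + itaconate C). Calls over all genes went from 5483 to 3990 with no replicate block and to 5369 with total counts alone. They were 4530 to 5559 with a library left out. No alternative that could be fitted called any of the 9 genes in the interaction. Over the 9 genes, the named genes of the other lists and the 8 ratio tests together, 11 differences gained and 82 lost their call. Side and direction were kept by 1277. Ratio tests entered these counts by their unadjusted exact p, and none of them passed after adjustment. Those at 0.0286, the smallest exact p of 4 against 4 libraries, could not reach it with a library left out. Losses among them therefore say nothing about single genes.

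Values that changed sign were all small and not called. *Ghr* for lipid + itaconate against lipid was 2.7e-05 with no replicate block and −0.09 to 0.076 with a library left out, and for lipid against untreated 0.018 with total counts alone (−0.12 to −0.031 with a library left out). *Stat5a* in the interaction ran from −0.066 to 0.045, *Igfals* for itaconate against untreated from −0.11 to 0.011, and *Igfbp4* for the same comparison from −0.085 to 0.0059, with a library left out. *Igfbp4* for lipid + itaconate against itaconate was 0.016 with total counts alone and −0.073 to 0.0016 with a library left out. *Igfbp2* for lipid + itaconate against lipid ran from −0.0014 to 0.17, and in the interaction it was −0.0048 (RLE scaling), −0.027 (total counts), −0.0066 (no filter), −0.0079 (filterByExpr), −0.005 (DESeq2), −0.0073 (limma-trend) and −0.074 to 0.10 with a library left out. The *Socs2* to *Cish* ratio for lipid + itaconate against lipid ran from −0.22 to 0.066. The cause was not tested.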

Other observations

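For each of the 9 genes, the protein-coding gene with the most similar pattern was found over the 16 libraries (log2 CPM, with the mean of each letter removed), as a description only, since the points share treatments, depth and scaling. The nearest was *Cyp2d9*, a male-biased cytochrome P450 of the growth hormone target list, to *Igfbp2* (Pearson r 0.99). *Ghr* was nearest to *Hgd*, an enzyme of tyrosine breakdown (0.98), *Stat5a* to *Max*, the partner of MYC (0.98), *Socs2* to *Arfgef2* (0.98), *Igf1* to the proteasome subunit gene *Psmb4* (0.96) and *Cish* to *Wdr93* (0.94), the last at a mean of 1.03 CPM. *Stat5b* was nearest to *Slc37a4*, the glucose-6-phosphate transporter (0.89), *Igfals* to *Sgsm3* (0.88) and *Igfbp4* to *Ccdc107* (0.88). Among the 9 genes themselves the highest correlations were those of *Ghr* with *Igfbp2* (0.87) and of *Socs2* with *Cish* (−0.81), while *Igfbp4* and *Ghr* were near 0 (0.02).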
